A study of Rattus norvegicus with 16 samples.

Results

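Ncam1, Ncam2, L1cam, Chl1, Alcam, Mcam and Cd24 are surface molecules that have been used to describe immature and repair Schwann cells, and they were followed here as a fixed list of 7 genes among the 31038 genes of the deposited tables. All 7 had a record and all 7 passed the filter on low counts in each comparison. The study sequenced RNA of rat sciatic nerve, either from Schwann cells purified by immunopanning or from the whole nerve, in 16 libraries that form 8 groups of 2. The groups were uncrushed nerve and the nerve distal to a crush after 3, 5 and 7 days, each as purified Schwann cells and as whole nerve. The rats were crushed on the left side at postnatal day 18, the age given for every sample, no strain, sex or transgene was given in the labels, and the uncrushed nerves had no sham operation. Each purified sample pooled at least 10 nerves, cells binding anti-CD45 and anti-Thy1 were removed and cells binding the O4 antibody were kept, so the purified groups hold Schwann cells that carry the O4 antigen and survive dissociation, whereas whole nerve was not dissociated. Nothing says that the 2 libraries of a group came from separate litters or days, and the p-values measure the spread between these samples only.

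The neural cell adhesion molecules Ncam1 and Ncam2, the L1 family members L1cam and Chl1, Alcam and Mcam carry immunoglobulin domains on the outside of the cell and bind partners on the same or a neighbouring cell. In the developing nerve, immature Schwann cells carry Ncam1 and L1cam along their contact with axons; myelinating cells lose them, and non-myelinating (Remak) cells keep them. Cd24 is a small, heavily glycosylated protein held in the membrane by a lipid anchor; it is not of the immunoglobulin type, and it is made by many immature cells.

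RefSeq promoter sequence (build GRCr8) was at hand for 4 of the 7 genes, Ncam2, Chl1, Alcam and Cd24. The 250 bases before the start site of Cd24 and Ncam2 are shown because these genes moved in opposite directions after crush while both promoters are rich in G and C. Capitals mark the GC box GGGCGG and the TATA box core TATANA, searched on both strands.
Cd24, chr20:48656227-48656476, plus strand: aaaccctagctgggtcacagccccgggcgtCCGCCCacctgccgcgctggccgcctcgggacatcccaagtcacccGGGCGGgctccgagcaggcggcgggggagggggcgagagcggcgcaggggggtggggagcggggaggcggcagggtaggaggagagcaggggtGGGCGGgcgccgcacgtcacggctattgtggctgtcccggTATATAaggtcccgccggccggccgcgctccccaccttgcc
Ncam2, chr11:33591573-33591822, plus strand: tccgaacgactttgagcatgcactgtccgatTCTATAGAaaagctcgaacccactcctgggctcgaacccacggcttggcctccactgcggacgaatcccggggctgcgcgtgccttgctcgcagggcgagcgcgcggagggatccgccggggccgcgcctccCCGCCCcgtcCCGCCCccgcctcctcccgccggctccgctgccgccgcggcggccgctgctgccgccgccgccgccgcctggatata
G and C made up 75.6% of the Cd24 window and 73.2% of the Ncam2 window, against a median of 51.2% over 33469 rat promoters, and 49.6% for Chl1 and 60.8% for Alcam. The Cd24 window held 3 GC boxes and 1 TATA core, and the Ncam2 window held 2 GC boxes and 2 overlapping matches to the TATA core on opposite strands, where 30.5% of all promoters held a GC box and 24.2% a TATA core. The AP-1 site TGANTCA (6.34% of promoters) and the TEAD site GGAATG (12.1%) had no match in the 4 windows, and the SOX core ACAAAG (16.3%) had 1 match, in the Chl1 window. A match is a run of letters and not a measured site. The study's Cd24 oligonucleotide for quantitative PCR is shown as listed, and it was not aligned to the transcript counted here.
Cd24 primer: gctcctacccacgcagatttat

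Libraries held 10555067 to 27562637 expected counts. The label of the purified cells was checked against 9 Schwann cell markers: at day 3 and day 5 all 9, at day 7 8 and in uncrushed nerve 7 were higher in the purified cells than in whole nerve at an adjusted p below 0.05 in the edgeR quasi-likelihood test (the rule for "called" in what follows). S100b was among those lower in the purified cells of uncrushed nerve. All 10 macrophage markers and all 9 endothelial markers were lower in the purified cells at each of the 4 times. The summed FPKM (fragments scaled by transcript length and by library depth) of the macrophage list was 3.61 to 16.2 in the 8 purified libraries and 169.2 to 746.2 in the 8 whole nerve libraries. The highest purified value was day 3 replicate 2, with 160 counts of Ptprc (CD45) against 13 in day 3 replicate 1. The fibroblast list summed to 1343 and 1604 FPKM in uncrushed Schwann cells and to 308.1 to 469.8 in the crushed ones, against 6501 to 8555 in whole nerve.

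In purified Schwann cells, 5 of the 6 immunoglobulin-type molecules fell by day 3 and stayed below the uncrushed level to day 7, while Cd24 rose. At day 3 the 2 members called higher were Chl1 and Cd24, where 26.7% of all 14961 genes tested were called higher, and the 5 called lower were Ncam1, Ncam2, L1cam, Alcam and Mcam, where 25.9% of all genes were. At day 5 and day 7, Cd24 was the 1 member called higher (28.8% and 25.2% of all genes) and the other 6 were called lower (25.8% and 22.2%). Without day 3 replicate 2, the Schwann cell library with the most Ptprc, the day 3 counts were 1 higher (Cd24) and 5 lower. The median log2 fold change of the 7 genes was -1.24, -1.92 and -1.48 at day 3, 5 and 7, beside medians of 0.00, 0.06 and 0.06 over all genes tested. The sum of the fibroblast list was also at its highest in uncrushed Schwann cells, while at day 3, of its 8 genes, 1 was called higher (Fn1, 1.74 ± 0.35), 2 were called lower (Col3a1 the lowest, -5.12 ± 0.38) and 5 were not called (edgeR adjusted p = 0.0087 and 1.63e-04 for the named genes). The perineurial list summed to 115.3 and 119.3 FPKM in uncrushed Schwann cells and to 58.0 to 66.9 in crushed ones, with 2 of the 3 genes tested called lower at each day. The part of such cells in the falls of the members was not tested.

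**Figure D1:**
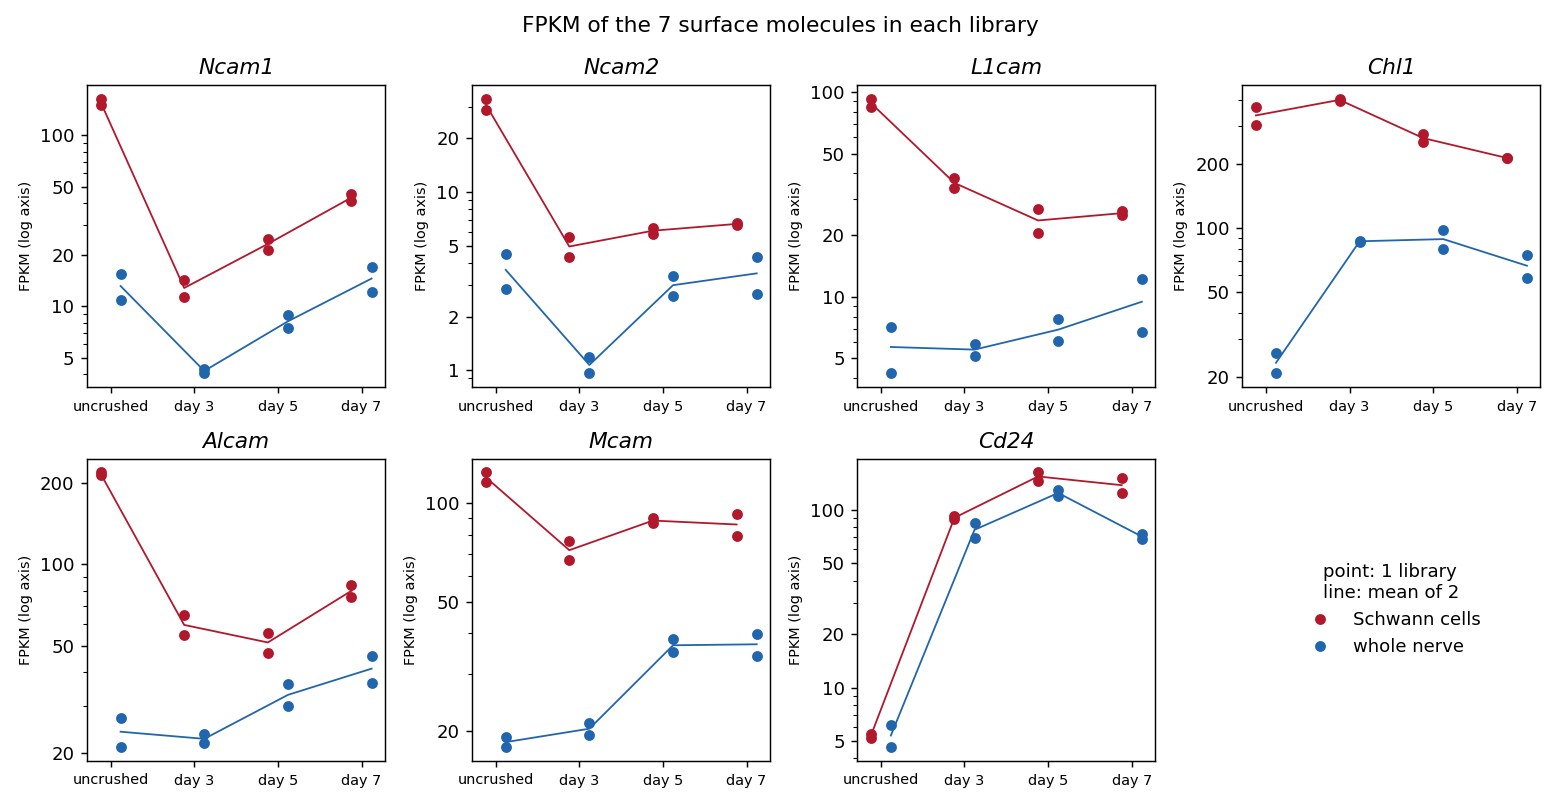
FPKM of each of the 7 genes in every library (log axis, points are libraries, lines join the means of 2), for purified Schwann cells in red and whole nerve in blue, by time after crush. Ncam1 in Schwann cells starts at 164.1 and 150.2 and is at 14.3 and 11.3 at day 3, while Cd24 goes from 5.20 and 5.50 to 92.1 and 88.5.

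Ncam1, which binds itself across cells and signals through Fgfr1 and Fyn, showed the steepest fall of the 7 at day 3 and day 5. Its FPKM in Schwann cells was 164.1 and 150.2 in uncrushed nerve, 14.3 and 11.3 (day 3), 24.9 and 21.5 (day 5) and 45.5 and 41.1 (day 7). No crushed library reached an uncrushed one, and no 2 of the 4 groups overlapped. Ncam1 fell by 3.58 ± 0.14 (SE, n = 2 against 2) on the log2 scale at day 3 (edgeR adjusted p = 8.66e-10), the 349th lowest of 14961 genes. It then regained ground, by 0.69 ± 0.12 from day 3 to day 5 (edgeR adjusted p = 0.00344) and by 0.89 ± 0.12 from day 5 to day 7 (edgeR adjusted p = 0.00296), intervals in which 13.4% and 2.79% of all genes were called in either direction. The first of these calls was lost without day 3 replicate 2 and the second without day 5 replicate 2 (edgeR adjusted p = 0.0586 and 0.0534). At day 7 Ncam1 was still lower than in uncrushed cells by 1.99 ± 0.13 (edgeR adjusted p = 1.28e-07). The mean transcript length that RSEM assigned to Ncam1 ranged from 5079 to 5687 bases over the libraries, a ratio of 1.12, and those of the other 6 members varied by a ratio of at most 1.02.

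Ncam2, the second neural cell adhesion molecule, fell as early and did not regain its level. Its FPKM was 28.7 and 33.4 in uncrushed Schwann cells, 5.58 and 4.31 (day 3), 6.32 and 5.81 (day 5) and 6.51 and 6.73 (day 7). The uncrushed libraries stood above all 6 crushed ones. Ncam2 fell at every time; its log2 fold change was -2.61 ± 0.15, -2.38 ± 0.15 and -2.27 ± 0.15 (edgeR adjusted p = 2.32e-08, 6.09e-08 and 1.39e-07). Among the crushed days no difference was called, and the estimate from day 3 to day 7 was 0.34 ± 0.15 (edgeR adjusted p = 0.122; 22.2% of all genes called). On the per-length FPKM scale Ncam2 was the lowest immunoglobulin-type member in each of the 8 groups.

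L1cam, a homophilic molecule on axons and on cells that do not myelinate, had an FPKM of 92.7 and 84 in uncrushed Schwann cells, 38.1 and 33.9 (day 3), 26.7 and 20.5 (day 5) and 26.1 and 25.1 (day 7). The day 3 libraries lay between the uncrushed and the later ones, and the day 5 and day 7 libraries overlapped. L1cam fell by 1.24 ± 0.13 at day 3 (edgeR adjusted p = 5.63e-06) and by a further 0.68 ± 0.13 from day 3 to day 5 (edgeR adjusted p = 0.00462; this call was lost in the fit over all 16 libraries), with 0.10 ± 0.13 from day 5 to day 7 (edgeR adjusted p = 0.765). Its log2 fold change at day 7 against uncrushed was -1.82 ± 0.13 (edgeR adjusted p = 4.01e-07).

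Chl1, the close homolog of L1, was the most abundant of the 7 on the FPKM scale in each of the 4 Schwann cell groups and changed least in the first days. It measured 370.5 and 304.8 FPKM in uncrushed cells, 404.6 and 394.0 (day 3), 275.7 and 252.9 (day 5) and 212.5 and 213.8 (day 7). The day 3 libraries were the highest and the day 7 libraries the lowest, with both uncrushed libraries between the day 3 and day 5 ones. The rise at day 3 was 0.30 ± 0.11 (edgeR adjusted p = 0.0311), and in 9 of 13 alternative fits, those without uncrushed replicate 2, day 3 replicate 1 or day 3 replicate 2 among them, this call was lost, with estimates over all 13 of 0.16 to 0.42. Chl1 then fell by 1.00 ± 0.11 from day 3 to day 7 (edgeR adjusted p = 3.82e-05), to a log2 fold change of -0.70 ± 0.11 against uncrushed (edgeR adjusted p = 1.72e-04). The call of Chl1 as lower at day 5 was lost without uncrushed replicate 1 or day 5 replicate 2. The files hold 1 predicted Chl1 transcript.

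Alcam (CD166), which binds itself and the lymphocyte receptor Cd6, was the second most abundant member in uncrushed Schwann cells. Its FPKM was 215.0 and 219.1 there, 64.8 and 54.6 (day 3), 55.9 and 46.9 (day 5) and 83.8 and 75.9 (day 7). All crushed libraries lay far below the uncrushed ones, and the day 3 and day 5 libraries overlapped. Alcam fell, its log2 fold change being -1.82 ± 0.12, -2.10 ± 0.13 and -1.48 ± 0.12 at day 3, 5 and 7 (edgeR adjusted p = 1.31e-07, 5.49e-08 and 1.29e-06), with a partial return of 0.62 ± 0.12 from day 5 to day 7 (edgeR adjusted p = 0.0208), a call lost in 4 of 13 alternative fits, those without day 5 replicate 2 or either day 7 library among them.

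Mcam (CD146), an adhesion molecule also known from endothelium and pericytes, showed the smallest of the falls that held at all 3 days. Its FPKM was 116.3 and 124.5 in uncrushed Schwann cells, 76.7 and 67.1 (day 3), 90.1 and 87.2 (day 5) and 92.9 and 79.5 (day 7). Uncrushed libraries were the highest, and day 5 and day 7 overlapped. Mcam fell, with log2 fold changes of -0.70 ± 0.11, -0.47 ± 0.11 and -0.53 ± 0.11 (edgeR adjusted p = 2.07e-04, 0.00336 and 0.00212), and no difference between crushed days was called. The 9 endothelial markers summed to 5.50 and 6.71 FPKM in uncrushed Schwann cells and to 1.55 to 5.33 in crushed ones (3 of the 5 tested called lower at each day, Vwf at -3.71 ± 0.49 at day 3, edgeR adjusted p = 3.95e-05). The 9 pericyte and smooth muscle markers summed to 56.1 and 66.5 FPKM in uncrushed Schwann cells and to 10.3 to 22.5 in crushed ones, with 3 of the 8 tested called lower at each day and Pdgfrb at -3.14 ± 0.13 at day 3 (edgeR adjusted p = 1.85e-09). Both lists were thus at their highest where Mcam was, and their part in its falls was not tested.

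Cd24 was the 1 member that rose at every time. It had 121 and 115 counts in the uncrushed Schwann cell libraries and 2408 and 4029 at day 3. In FPKM this was 5.20 and 5.50 uncrushed, 92.1 and 88.5 (day 3), 162.4 and 145.8 (day 5) and 124.2 and 151.1 (day 7). The lowest crushed library stood at 88.5 FPKM and the highest uncrushed one at 5.50. The rise on the log2 scale was 4.13 ± 0.14, 4.82 ± 0.14 and 4.64 ± 0.14 (edgeR adjusted p = 5.71e-10, 3.87e-10 and 6.78e-10), which made Cd24 the 195th highest of 14961 genes at day 3. It gained 0.69 ± 0.12 from day 3 to day 5 (edgeR adjusted p = 0.00229), and the day 5 and day 7 libraries overlapped, with -0.18 ± 0.12 between them (edgeR adjusted p = 0.479). Cd24 is also made by B cells and neutrophils; in the purified libraries the 10 lymphocyte markers summed to 0.55 and 1.24 FPKM uncrushed and to 0.14 to 1.75 after crush, with the B cell genes Cd79a and Cd79b at 0 counts in all 8. The 7 neutrophil markers summed to 30.8 and 43.9 FPKM uncrushed and to 4.33 to 12.9 after crush, with S100a8 and Elane at 0 counts in all 8. In uncrushed whole nerve that sum was lower, 6.38 and 9.65 FPKM. Only 1 of the 7 passed the filter in Schwann cells, Ly6g6c, at -1.57 ± 0.23 at day 3 (edgeR adjusted p = 1.15e-04). Cxcr2 and Mpo had no counts in uncrushed Schwann cells, while Cxcr2 had counts at day 3 and day 5 and Mpo at day 5. The part of neutrophils in the rise of Cd24 was not tested. The macrophage list summed to 5.27 and 7.80 FPKM uncrushed and to 3.61 to 16.2 after crush, where 1 library of day 3 (16.2) and 1 of day 5 (11.3) stood above both uncrushed ones, and its part in the rise of Cd24 was not tested.

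In whole nerve the same genes gave another picture: Chl1 and Cd24 rose at all 3 days, Mcam was higher at day 5 and day 7 and Alcam at day 7, Ncam1, Ncam2, Alcam and Mcam were lower at day 3, and L1cam gave no call. At day 3, 2 members were called higher and 4 lower, where 23.3% and 22.6% of 15831 genes were. At day 5 the counts were 3 and 1 (19.3% and 19.7%), and at day 7 they were 4 and 0 (15.9% and 16.1%). The median log2 fold change of the 7 genes was -0.44, 0.07 and 0.39, beside 0.00, -0.01 and 0.02 over all genes. In these bulk samples, fewer cells of a type and less RNA per cell cannot be told apart. All 10 macrophage markers were called higher at day 3, their sum going from 169.2 and 192.2 FPKM in uncrushed nerve to 719.5 and 746.2, and the skeletal muscle list summed to 27.97 and 412.7 FPKM in the uncrushed libraries and to 5.52 to 47.3 in the crushed ones. The part of either list in the changes of whole nerve was not tested.

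**Figure D2:**
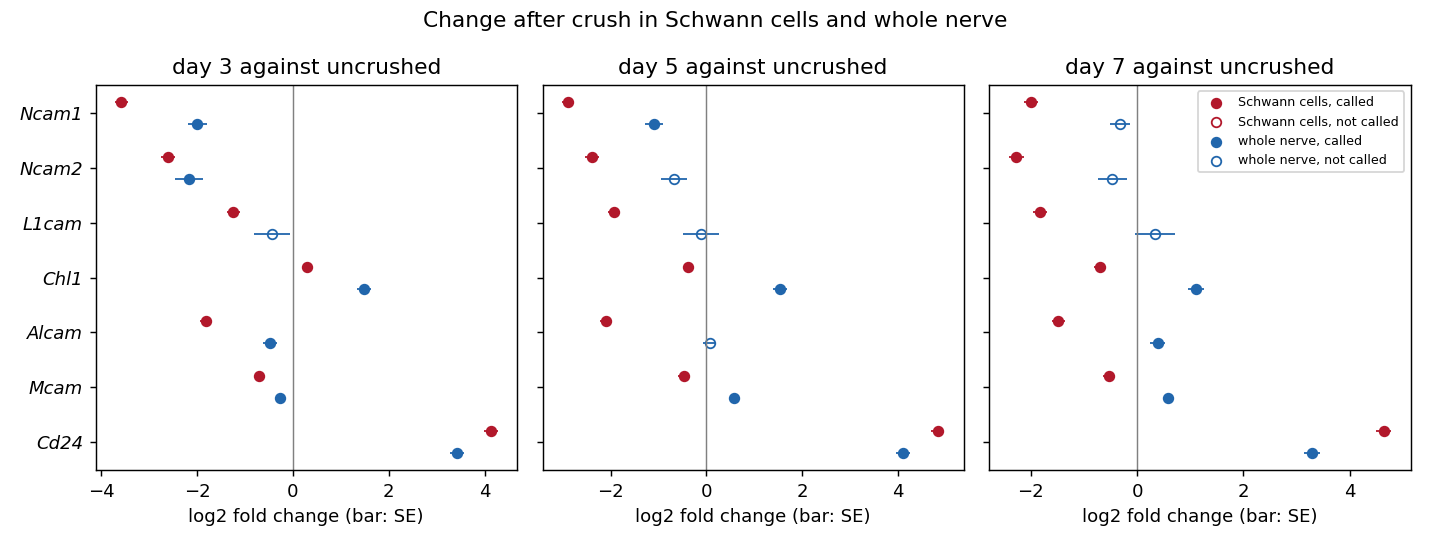
log2 fold change against uncrushed (x axis, bars are SE, n = 2 against 2) of the 7 genes at day 3, 5 and 7, in Schwann cells (red) and whole nerve (blue), with open points where the adjusted p was not below 0.05. The red points of the 6 immunoglobulin-type genes lie left of the blue ones in each panel, and those of Cd24 lie right of them.

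Chl1 was the immunoglobulin-type member that rose at all 3 days in whole nerve. Its FPKM was 20.8 and 25.8 in uncrushed nerve, 86.9 and 86.4 (day 3), 79.6 and 97.8 (day 5) and 58.2 and 74.9 (day 7). Every crushed library lay above both uncrushed ones. The rises were 1.49 ± 0.15, 1.53 ± 0.15 and 1.11 ± 0.15 (edgeR adjusted p = 7.96e-06, 8.89e-06 and 1.44e-04), and no step between crushed days was called, but day 7 was called lower than day 5 in 4 of 13 alternatives and lower than day 3 in 5 of 13, leaving out day 7 replicate 2 and the replicate block being among both (edgeR adjusted p with the block = 0.0107 and 0.00703).

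Cd24 in whole nerve went from 6.13 and 4.63 FPKM to 84.8 and 69.7 (day 3), 119.3 and 129.6 (day 5) and 68.4 and 73.3 (day 7). All crushed libraries were above the uncrushed ones and the day 5 libraries were the highest. The rises were 3.42 ± 0.15, 4.10 ± 0.15 and 3.29 ± 0.15 (edgeR adjusted p = 4.11e-10, 1.16e-10 and 1.46e-09), and Cd24 fell by 0.81 ± 0.12 from day 5 to day 7 (edgeR adjusted p = 0.00103; 9.13% of all genes called in that interval). The lymphocyte list summed to 24.6 and 27.2 FPKM in uncrushed nerve and to 64.0 to 86.2 in crushed nerve, and the neutrophil list to 6.38 and 9.65 uncrushed and to 9.91 to 16.6 crushed; the part of these cells in the whole nerve values was not tested.

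Ncam1 in whole nerve measured 10.8 and 15.4 FPKM uncrushed, 4.32 and 4.05 (day 3), 7.48 and 8.85 (day 5) and 12.1 and 16.9 (day 7), so that day 7 overlapped uncrushed. It fell, its log2 fold change being -1.99 ± 0.20 at day 3 and -1.09 ± 0.19 at day 5 (edgeR adjusted p = 2.46e-05 and 0.00151), and its day 7 value of -0.33 ± 0.19 was not called (edgeR adjusted p = 0.224). Ncam2, on only 88 and 78 counts at day 3, had 2.85 and 4.46 FPKM uncrushed, 1.18 and 0.96 (day 3), 2.61 and 3.39 (day 5) and 2.67 and 4.32 (day 7). It fell by 2.17 ± 0.29 at day 3 (edgeR adjusted p = 8.62e-05) and rose by 1.49 ± 0.28 from day 3 to day 5 (edgeR adjusted p = 0.00625; 13.0% of all genes called), a call lost without day 3 replicate 2 or day 5 replicate 2. From day 3 to day 7 Ncam1 rose by 1.67 ± 0.19 and Ncam2 by 1.70 ± 0.28 (edgeR adjusted p = 2.65e-04 and 0.00141; 22.6% of all genes called). Both genes had their lowest whole nerve level at day 3.

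Alcam and Mcam were called slightly lower in whole nerve at day 3 and higher later. Alcam measured 21.1 and 27 FPKM uncrushed, 21.7 and 23.5 (day 3), 29.8 and 36 (day 5) and 36.4 and 45.8 (day 7); its log2 fold changes were -0.48 ± 0.14, 0.07 ± 0.14 and 0.39 ± 0.14 (edgeR adjusted p = 0.0131, 0.739 and 0.0484). The day 3 and the day 7 call of Alcam were each lost in 4 of 13 alternative fits, the first without uncrushed replicate 2 or either day 3 library and the second without uncrushed replicate 1 or day 7 replicate 2. Mcam measured 17.9 and 19.2 FPKM uncrushed, 19.5 and 21.2 (day 3), 35.1 and 38.3 (day 5) and 34.1 and 39.8 (day 7). Its day 3 call of -0.28 ± 0.10 (edgeR adjusted p = 0.0411) was lost in 8 of 13 alternatives, those that leave out any 1 of the 4 libraries among them, and turned to 0.13 with limma on log2(FPKM + 1), and the FPKM values themselves were higher at day 3 than uncrushed. At day 5 and day 7 Mcam rose by 0.57 ± 0.10 and 0.59 ± 0.10 (edgeR adjusted p = 5.37e-04 and 5.57e-04). The endothelial list summed to 108.4 and 109.8 FPKM in uncrushed nerve and to 118.7 to 142.4 in crushed nerve, and the pericyte and smooth muscle list to between 287.8 and 349.2 uncrushed and between 353.2 and 437.3 crushed. Both sums were lower in the uncrushed libraries, as Mcam was on the FPKM scale, but the calls per gene did not follow the sums. Of 9 endothelial genes, 3, 1 and 0 were called higher and 3, 3 and 5 lower at day 3, 5 and 7. Of 9 pericyte and smooth muscle genes, 1 was higher at each day and 5, 2 and 4 lower. Over all genes, 23.3%, 19.3% and 15.9% were higher and 22.6%, 19.7% and 16.1% lower. The part of both lists in the Mcam values was not tested.

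L1cam was the member with the widest spread in whole nerve, at 4.23 and 7.15 FPKM uncrushed, 5.16 and 5.89 (day 3), 6.06 and 7.77 (day 5) and 6.74 and 12.2 (day 7). Groups overlapped at each time. Its log2 fold changes of -0.44 ± 0.38, -0.11 ± 0.38 and 0.34 ± 0.38 were not called (edgeR adjusted p = 0.402, 0.846 and 0.555).

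Whether the change after crush differed between purified cells and whole nerve was tested as an interaction in 1 fit over the 16 libraries. At day 3 Cd24 was more strongly raised in Schwann cells and 4 members (Ncam1, Chl1, Alcam and Mcam) had a lower fold change there, where 12.3% of 16829 genes were called higher and 13.8% lower. At day 5 and day 7 all 6 immunoglobulin-type members had a lower fold change in Schwann cells and Cd24 a higher one (lower, 15.0% and 14.6% of all genes; higher, 12.6% and 11.7%). For Chl1 the difference was -1.29 ± 0.19, -2.02 ± 0.19 and -1.92 ± 0.19 on the log2 scale (edgeR adjusted p = 5.61e-05, 4.55e-07 and 9.85e-07), and for Alcam it was -1.44 ± 0.20, -2.28 ± 0.20 and -1.98 ± 0.20 (edgeR adjusted p = 4.44e-05, 3.40e-07 and 1.88e-06). For Cd24 it was 0.61 ± 0.21, 0.59 ± 0.21 and 1.23 ± 0.21 (edgeR adjusted p = 0.0436, 0.0458 and 3.46e-04); the day 3 and day 5 calls were lost in 8 and 10 of 15 alternatives. The day 3 call of Mcam was lost in 3 of 15, without whole nerve uncrushed replicate 1, Schwann cell day 3 replicate 2 or whole nerve day 3 replicate 2.

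Purified Schwann cells carried more of the 6 immunoglobulin-type transcripts than whole nerve at each of the 4 times, and the gap was widest in uncrushed nerve. There, 6 of 7 members were called higher and 0 lower, where 29.1% and 35.0% of 16829 genes were. The differences were 3.67 ± 0.31 for L1cam, 3.55 ± 0.15 for Chl1, 3.33 ± 0.18 for Ncam1, 2.88 ± 0.15 for Alcam, 2.80 ± 0.24 for Ncam2 and 2.40 ± 0.12 for Mcam (log2, edgeR adjusted p from 2.98e-12 to 2.55e-06). By day 7 they had narrowed to between 0.87 for Ncam2 and 1.62 for Chl1, and all 7 members were called higher (22.3% of all genes higher, 28.5% lower), Ncam2 not so without whole nerve day 7 replicate 1. At day 3 and day 5 those 6 were called higher (24.5% and 23.2% of all genes; 32.7% and 28.4% lower). The difference of Cd24 was -0.34 ± 0.17 in uncrushed nerve, 0.27 ± 0.13 at day 3 and 0.26 ± 0.13 at day 5, none of them called (edgeR adjusted p = 0.0922, 0.0803 and 0.1; 95% intervals -0.70 to 0.02, 0.00 to 0.54 and -0.01 to 0.52), and 0.90 ± 0.13 at day 7 (edgeR adjusted p = 1.52e-05). At day 3 it was called in 5 of 11 alternatives (RLE and upper quartile scaling, DESeq2, no filter, and without whole nerve day 3 replicate 1), and at day 5 and in uncrushed nerve in 1 of 11 each.

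**Figure D3:**
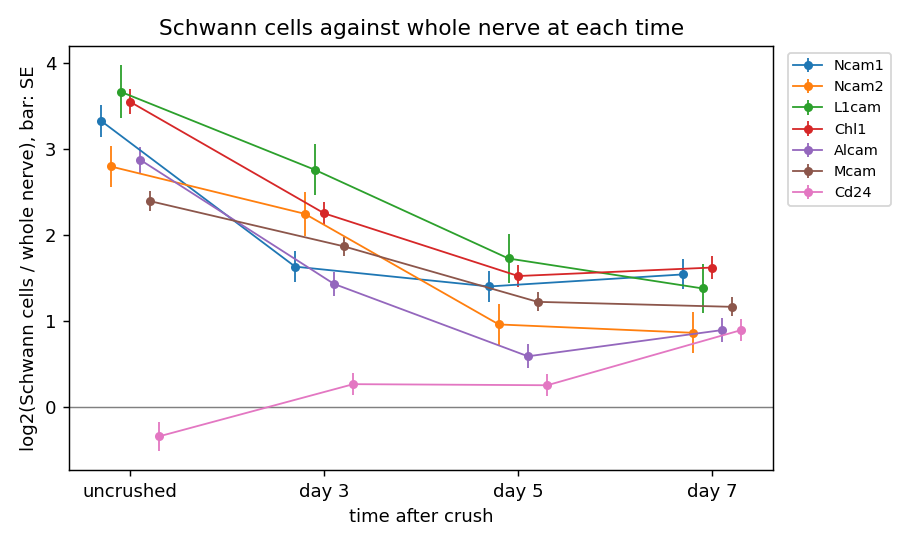
log2 difference between purified Schwann cells and whole nerve (y axis, bars are SE, n = 2 against 2) by time for the 7 genes. The 6 immunoglobulin-type genes start between 2.40 and 3.67 in uncrushed nerve and end between 0.87 and 1.62 at day 7, while Cd24 goes from -0.34 to 0.90.

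The make-up of the list changed with its level. On the per-length FPKM scale, the 7 genes summed to 957.0 in uncrushed Schwann cells (mean of 2 libraries), 674.9 at day 3, 611.2 at day 5 and 592.4 at day 7. In whole nerve the sum went the other way, from 93.7 to 217.6, 300.8 and 242.9. Chl1 held 35.3% of the Schwann cell sum before crush and 59.2% at day 3, Alcam went from 22.7% to 8.84%, Ncam1 from 16.4% to 1.90%, and Cd24 from 0.559% to 13.4%, then 25.2% at day 5. In whole nerve Cd24 rose from 5.74% to 41.4% at day 5 and was then the largest share. In Schwann cells Chl1 remained the largest share at each time.

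**Figure D4:**
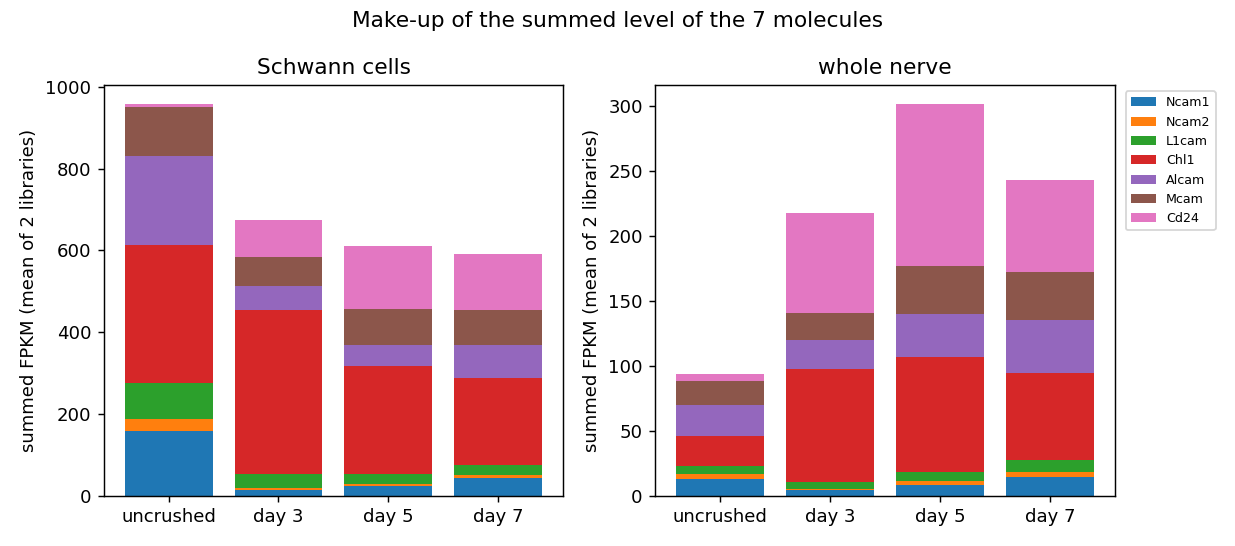
Summed FPKM of the 7 genes (y axis from 0, mean of 2 libraries, scales differ between panels) by time in Schwann cells and whole nerve, split by gene. The Cd24 block is 0.559% of the bar in uncrushed Schwann cells and 25.2% at day 5, and in whole nerve it reaches 41.4% at day 5.

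Other genes of the same surface system were taken from lists. Their counts stand beside a share over all genes of 26.7% higher and 25.9% lower in Schwann cells at day 3, 25.2% and 22.2% at day 7, and 23.3% and 22.6% in whole nerve at day 3. Of 37 further immunoglobulin-type adhesion molecules tested in Schwann cells at day 3, 8 were called higher and 16 lower (median log2 fold change -0.57). The highest was Emb (embigin), with 6.37 ± 0.34 (edgeR adjusted p = 1.42e-08), and the lowest was the axonal contactin Cntn1, with 13 and 16 counts in uncrushed Schwann cells and 0 counts in both day 3 libraries. At day 7, 7 of the 37 were higher and 13 lower (median -0.27). In whole nerve at day 3, 11 of 41 were higher and 16 lower (median -0.16). The counts called higher at day 3 were close to the share over all genes in both tissues.

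St8sia2 and St8sia4 build polysialic acid on Ncam1; St8sia2 had 0 to 23 counts in the 8 Schwann cell libraries and no call (-1.14 ± 1.40 at day 3), and St8sia4, with 0 to 10 counts, was not tested there. In whole nerve St8sia2 fell by 3.08 ± 0.57 at day 3 (edgeR adjusted p = 4.91e-04) and St8sia4 rose by 1.74 ± 0.30 (edgeR adjusted p = 2.76e-04). Of the 4 sialylation genes tested in Schwann cells, 1 was called at day 3, a count at the share over all genes called lower, St8sia5, which acts on gangliosides and fell by 3.36 ± 0.37 (edgeR adjusted p = 9.28e-06), and 2 were called lower at day 5 and at day 7, St8sia5 and St3gal5. Of 6 proteases that can cut such molecules, 2 rose and 2 fell at day 3, within 1 gene of the share over all genes each way, with Bace2 the highest at 1.47 ± 0.12 and Bace1, which cuts Chl1, the lowest at -0.80 ± 0.17 (edgeR adjusted p = 7.87e-07 and 0.0016).

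Among 18 partners and signal carriers of the members, 9 rose and 5 fell in Schwann cells at day 3 (median 0.33), the 5 being close to the share over all genes. The growth-cone protein Gap43 rose most, by 3.27 ± 0.31 (edgeR adjusted p = 2.08e-06), and the ankyrin Ank2, an anchor for the L1 family in the membrane skeleton, fell most, by 2.56 ± 0.13 (edgeR adjusted p = 9.13e-09). In whole nerve at day 3, 12 of 21 rose and 4 fell, the 4 again close to that share.

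Genes of known Schwann cell states were set beside the members. All 12 myelin genes fell at day 3 (median -3.92), Prx the most at -6.01 ± 0.23 (edgeR adjusted p = 4.44e-08). Of 16 immature and repair genes outside the 7, 10 rose and 4 fell (median 1.21), the 4 being close to the 25.9% called lower over all genes, from Runx2 at 6.10 ± 0.15 to Id2 at -4.12 ± 0.18 (edgeR adjusted p = 1.94e-10 and 2.25e-09). The 6 non-myelinating cell genes that are not members had 1 call up, the neurotrophin receptor Ngfr at 4.63 ± 0.20, and 4 down, the lowest the sodium channel gene Scn7a at -3.65 ± 0.20 (edgeR adjusted p = 5.78e-08 and 6.44e-07). Their median was -1.95, beside -1.24 for the 7 members. In uncrushed nerve 4 of those 6 were higher in purified cells than in whole nerve and 1 lower (median 2.30), as were 6 of the 7 members. Of the 12 myelin genes, 3 were higher and 9 lower in that contrast (median -1.14), where 29.1% and 35.0% of all genes were. At day 3, 9 of the 12 were higher in purified cells and 0 lower (median 0.65), where 24.5% and 32.7% of all genes were. The part of this shift in the falls of the members was not tested. In Schwann cells all 9 division genes were called higher at day 3 against uncrushed. The 9 neuron markers summed to 30.1 and 47.7 FPKM in uncrushed Schwann cells and to 147.1 to 307.0 in crushed ones (4 of the 6 tested called higher at day 3 and 1, Stmn2, lower). In whole nerve they summed to 35.7 and 39.3 uncrushed, 48.4 and 89.5 (day 3), 172.4 and 207.3 (day 5) and 107.5 and 177.5 (day 7). That sum was highest at day 5, as Cd24 was there, but more of the markers were called lower than higher. Of 8 tested, 1, 2 and 1 were called higher and 3, 4 and 4 lower at day 3, 5 and 7 (median -0.39, -0.71 and -0.55). Over all genes, 23.3%, 19.3% and 15.9% were higher and 22.6%, 19.7% and 16.1% lower. Their part in the values of the members was not tested.

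As a description, the genes whose log2 normalized counts (counts scaled to a common depth) ran most alike over the 16 libraries were listed for each member (Pearson r; the libraries share tissue and depth, and no test was made). The nearest to Ncam1 was Lama2, a laminin chain (0.991), to Ncam2 Epb41l4b (0.987), to L1cam Slitrk2 (0.986), to Chl1 LOC108350698 (0.989), to Alcam Rfx7 (0.987), to Mcam Stard13 (0.986) and to Cd24 Gpr83, a G protein-coupled receptor (0.994). Lrrc4c was among the 3 nearest of both Ncam1 (0.984) and Ncam2 (0.979). Over the 8 Schwann cell libraries alone the nearest were others: Tm7sf2 for Ncam1 (0.997), Plscr4 for Ncam2 (0.998), Dram1 for L1cam (0.995), Trappc8 for Chl1 (0.979), RGD1563222 for Alcam (0.998), Usp36 for Mcam (0.982) and Baalc for Cd24 (0.999). No member was among the 3 nearest genes of another.

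A second quantification of the Schwann cell libraries was deposited as Cufflinks FPKM for 5 of the 7 genes. Relative to uncrushed, the log2 ratio of its mean values at day 3 was -3.10 for Ncam1, -2.26 for Ncam2, -0.89 for L1cam, -1.47 for Alcam and 4.47 for Cd24. At day 7 the ratios were -1.27, -1.77, -1.28, -0.97 and 5.17 in the same order. At day 5, again in that order, they were -1.98, -1.77, -1.24, -1.41 and 5.53, where the edgeR estimates were -2.89, -2.38, -1.92, -2.10 and 4.82. Directions were the same as in the RSEM counts for these 5 genes at all 3 days. The sizes differed, and all 15 ratios lay more than 1 SE from the edgeR estimate. With 2 libraries against 2, an exact permutation test of a single value cannot go below p = 0.333, so the p-values given rest on the spread shared across genes in the edgeR fit.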

How the data were processed

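RNA of 16 rat samples was amplified (Ovation RNA-seq system V2, which does not mark strand, with no molecular identifiers) and sequenced; per the labels, reads were processed with CASAVA, STAR and RSEM on Rnor_6.0. The authors deposited, for each gene and library, RSEM expected counts, FPKM values (fragments scaled by transcript length and library depth) and transcript lengths, and a matrix of the same counts, which equals the library tables for 16 of 16. They also deposited Cufflinks FPKM of 6274 genes in the Schwann cell libraries. Expected counts were rounded to whole numbers, filtered with filterByExpr, scaled by TMM and tested with the edgeR (4.0.16) quasi-likelihood test under R 4.3.3, over the 8 libraries of 1 tissue for contrasts between times and over all 16 for contrasts between tissues, with Benjamini-Hochberg adjustment over all genes tested and a threshold of 0.05. The standard error was taken from the size of the log2 fold change over the root of its F statistic. FPKM was used for levels between genes. The depth per library was 10555067 to 27562637 counts, and counting error alone does not cover amplification.

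The members and all gene lists were chosen with earlier results of these data known, and the rule for named genes was all 7 members, St8sia2 and St8sia4, the called gene with the highest and with the lowest day 3 change in Schwann cells of each list, and the 3 genes most alike to each member; other genes named, and the motifs searched, were picked after values were seen. Alternatives were other scalings, filters, tools (DESeq2 1.42.0, limma 3.58.1 on log2(FPKM + 1)), sample sets, a replicate block and leaving out each library. Of the 33469 RefSeq promoters (GRCr8), none was matched for Ncam1, L1cam or Mcam. The coordinates given are GRCr8, not the build of the counts. Of the Schwann cell markers that were not higher in the purified cells, 1 is not reported here by name.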

Additional observations from a re-analysis of the deposited data

Results flagged for a closer look

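The change after crush differed between purified Schwann cells and whole nerve, by the interaction term of the edgeR quasi-likelihood test over 16 libraries, in 19 of 21 tests of the 7 genes at 3 days. Over all genes, 12.3%, 12.6% and 11.7% were called higher and 13.8%, 15.0% and 14.6% lower at day 3, 5 and 7. The calls of Cd24 at day 3 and day 5 were lost in 8 and 10 of 15 alternatives, and that of Mcam at day 3 in 3 of 15. Values are the Schwann cell log2 fold change minus that of whole nerve, with the SE, and negative values mean a lower fold change in Schwann cells. For Ncam1 they were -1.69 ± 0.25, -1.92 ± 0.25 and -1.78 ± 0.24 at day 3, 5 and 7. For Chl1 they were -1.29 ± 0.19, -2.02 ± 0.19 and -1.92 ± 0.19, and for Alcam -1.44 ± 0.20, -2.28 ± 0.20 and -1.98 ± 0.20. For Mcam they were -0.53 ± 0.16, -1.17 ± 0.16 and -1.23 ± 0.16. Ncam2 and L1cam differed at day 5, by -1.83 ± 0.33 and -1.94 ± 0.40, and at day 7, by -1.93 ± 0.33 and -2.28 ± 0.40, while their day 3 differences of -0.55 ± 0.35 and -0.91 ± 0.40 were not called (edgeR adjusted p = 0.282 and 0.133); that of L1cam was called in 4 of 15 alternatives (DESeq2, no filter, limma and without whole nerve uncrushed replicate 2) and that of Ncam2 with limma. For Cd24 the values were positive, 0.61 ± 0.21, 0.59 ± 0.21 and 1.23 ± 0.21. All uncrushed libraries are shared by the 3 days, so the 3 values of a gene are not independent.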

How the results depend on the processing

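Of 133 results for single genes, 100 had an adjusted p below 0.05, and 1590 of 1730 alternative values kept their direction and their side of the threshold. Among the 100, 1 changed direction: Mcam in whole nerve at day 3 was 0.13 with limma on log2(FPKM + 1), which raised the median of all genes in the whole nerve contrasts by 0.29, 0.30 and 0.29 at day 3, 5 and 7 and the share of calls that were higher at day 7 from 49.7% to 85.7%. The same setting gave 0.27 for L1cam at day 5, 0.14 for Ncam1 at day 7 and, between tissues in uncrushed nerve, 0.00284 for Cd24. The calls most often lost were Cd24 in the interaction at day 5 (10 of 15 alternatives) and day 3 (8 of 15), Chl1 in Schwann cells at day 3 (9 of 13) and Mcam in whole nerve at day 3 (8 of 13, limma included). Lost in 4 of 13 each were Alcam in whole nerve at day 3 and at day 7 against uncrushed and at day 5 against day 3, Alcam in Schwann cells at day 7 against day 5, and Ncam1 in whole nerve at day 7 against day 5. The cause was not tested. Ncam2 in whole nerve at day 3 rests on 88 and 78 counts.

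Among counts of members called against uncrushed in Schwann cells, the 2 higher at day 3 became 1 with RLE size factors, upper quartile scaling, at least 10 counts in every library, limma, all 16 libraries or 2 groups alone, and 1 to 2 when a library was left out. Between Schwann cell days, leaving out a library gave 1 to 2 higher (day 5 against day 3), 0 to 2 higher (day 7 against day 5), and 1 to 2 higher and 1 to 2 lower (day 7 against day 3). The fit over 16 libraries gave 1 lower for both contrasts with day 3, and limma 1 higher for day 7 against day 5. In whole nerve, the 4 lower at day 3 became 2 with limma and 2 to 3 without a library. The 1 lower at day 5 became 2 with no filter, the replicate block or 2 groups alone and 1 to 2 without a library, and the 0 lower at day 7 became 1 with no filter and 0 to 1 without a library. Between whole nerve days, leaving out a library gave 2 to 5 higher for day 5 against day 3. For day 7 against day 5 it gave 0 to 1 higher and 1 to 2 lower, with 2 higher and 2 lower under no filter or the block, 2 lower with DESeq2 and 0 higher with limma. For day 7 against day 3 the 0 lower became 1 with DESeq2, no filter, the block or 2 groups alone, and 0 to 1 without a library. Without a library, 0 to 1 member was lower in the purified cells of uncrushed nerve than in whole nerve. In the interaction the 1 member higher (Cd24) became 0 at day 3 with the block or limma, 0 at day 5 with those, RLE or DESeq2, and 0 to 1 without a library.

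Counts over all genes moved by more than 1.5 times in contrasts between days: without a library, 815 to 1043 of 2009 for day 5 against day 3, 85 to 191 of 418 for day 7 against day 5 and 1775 to 2425 of 3327 for day 7 against day 3 in Schwann cells, and 740 to 958 of 2065, 565 to 1140 of 1446 and 1901 to 2837 of 3580 in whole nerve. For day 7 against day 5, the Schwann cell count was 1048 with no filter, 125 with limma and 691 with 2 groups alone, and the whole nerve count 2172 with no filter and 879 with limma. Whole nerve at day 7 against uncrushed gave 7918 with limma, against 5055. Uncalled values near 0 changed sign when a library was left out: over those fits L1cam ran from -0.10 to 0.335 and Mcam from -0.17 to 0.060 (Schwann cells, day 7 against day 5); in whole nerve L1cam ran from -0.45 to 0.30 and Alcam from -0.087 to 0.24 at day 5, L1cam from -0.12 to 0.76 at day 7, Chl1 from -0.12 to 0.18 for day 5 against day 3, Ncam2 from -0.16 to 0.50, L1cam from -0.013 to 0.80 and Mcam from -0.085 to 0.093 for day 7 against day 5, and Cd24 from -0.28 to 0.030 for day 7 against day 3.

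The labels number the replicates alike in every group, but the correlation of same-numbered samples' deviations from their group means ran from -0.055 to 0.076 over 28 pairs of groups, so the numbers were not taken as pairs. With the replicate number as a block, Cd24 in the interaction was 0.60 and 0.59 at day 3 and day 5 (edgeR adjusted p = 0.0501 and 0.0536) and all other calls of the 7 genes held, while 6 values in whole nerve became calls, Ncam2 at day 5 (-0.67) and L1cam at day 3 (-0.41) among them. The block gave 7700, 7974 and 6875 calls over all genes in Schwann cells at day 3, 5 and 7 against uncrushed.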
